A study of Mus musculus with 4 samples.

Results

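The genes described here are 10 genes of renal calcium handling: Calb1, Trpv5, S100g, Slc8a1, Atp2b1, Atp2b4, Vdr, Pvalb, Casr and Cyp27b1. They were chosen by symbol, and all 10 were among the 31054 features of the deposited tables. Their raw counts of unique molecular identifiers (UMIs, 1 per captured RNA molecule) were summed per library within each tubule segment and compared between treated and control kidneys. The kidneys came from male C57BL/6 mice aged 19 months that were given BPTES, an inhibitor of the enzyme glutaminase, or the vehicle DMSO, in both cases for 1 month. No further allele or agent is named for either group, and every library is from aged kidney, so age itself was not compared. Each group had 2 libraries, each made from 20000 CD45-negative and 9000 CD45-positive sorted cells of the same kidney tissue and read from the 3′ ends of transcripts. The labels do not say whether the 2 libraries of a group came from separate animals, so the p-values below measure the spread between these libraries only.

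In the distal part of the nephron calcium is reabsorbed through the cells themselves. It enters from the tubule fluid through the channel TRPV5, is bound in the cytosol by calbindins, and leaves on the blood side through the sodium-calcium exchanger and the plasma membrane calcium pumps. Vitamin D, activated in the proximal tubule by the product of Cyp27b1 and sensed by its receptor Vdr, raises the expression of several of these genes, and the calcium-sensing receptor Casr acts mainly in the thick ascending limb, where calcium passes between the cells. Pvalb encodes parvalbumin, a calcium buffer that in the kidney is known from the early distal convoluted tubule.

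All 10 genes are annotated as protein coding and carry the same Ensembl identifiers in the files and in the GENCODE M21 annotation of GRCm38. Pvalb lies on the minus strand of chromosome 15 (78191114 to 78206400) and shares that chromosome with Vdr (97854425 to 97910630, minus strand). S100g, which encodes the small calbindin, lies on the minus strand of chromosome X (162961992 to 162964599). Calb1, which encodes the large calbindin, is on chromosome 4 (15881264 to 15908064, plus strand). Slc8a1, the sodium-calcium exchanger, spans chromosome 17 from 81373105 to 81738377 on the minus strand, and Trpv5 spans chromosome 6 from 41652173 to 41680769 on the minus strand. The pumps Atp2b1 and Atp2b4 are on chromosome 10 (98914406 to 99026143, plus strand) and chromosome 1 (133699457 to 133801041, minus strand), Casr on chromosome 16 (36493696 to 36562141, minus strand) and Cyp27b1 on chromosome 10 (127048250 to 127053006, plus strand).

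The bases just before the transcription starts of Pvalb and S100g are shown because Pvalb had the largest log2 fold change of the set in distal convoluted tubule and S100g the most UMIs. RefSeq promoter windows of GRCm38.p6 were found for 9 of the 10 genes, all but Calb1. Each sequence covers the 250 bases before the start, on the strand of the gene, at chr15:78206401-78206650 for Pvalb and chrX:162964600-162964849 for S100g.
Pvalb: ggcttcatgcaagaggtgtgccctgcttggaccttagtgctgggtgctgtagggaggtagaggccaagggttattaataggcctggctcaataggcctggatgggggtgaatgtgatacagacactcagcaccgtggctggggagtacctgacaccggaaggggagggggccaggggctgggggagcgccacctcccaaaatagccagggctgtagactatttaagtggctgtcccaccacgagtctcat
S100g: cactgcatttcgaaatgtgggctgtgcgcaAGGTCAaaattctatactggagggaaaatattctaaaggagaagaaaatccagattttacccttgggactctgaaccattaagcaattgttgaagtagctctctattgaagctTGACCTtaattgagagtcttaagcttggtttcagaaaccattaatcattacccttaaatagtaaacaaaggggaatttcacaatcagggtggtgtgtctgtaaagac
Capitals mark the nuclear receptor half-site AGGTCA, searched on both strands. S100g held it 220 bases before the start on the strand shown and 107 bases before it on the other strand, and Pvalb did not hold it. Of the 9 windows only that of S100g had a match, and 14.0% of all 32851 windows in the table had one. The TATA sequence TATAAA, searched the same way, was in the Trpv5 window alone and in 12.4% of all windows. These matches describe the letters and say nothing about binding.

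The 4 libraries held 249881074 to 297947661 UMIs in 17907 to 20091 barcodes, of which 10849 to 12076 cells per library were kept. At most 45 barcodes were shared between any 2 libraries (0.383% of the cells of the smaller one). Clustering, in which neither the 10 genes nor the wider pathway list was used, gave 8 named tubule segments with 24612 cells. Among the defining markers Slc12a3, the sodium-chloride cotransporter, reached 5836 to 7646 counts per 1000000 UMIs (CPM) in distal convoluted tubule and at most 166 CPM in connecting tubule, and Scnn1g, a sodium channel subunit, reached 556 to 892 CPM in connecting tubule and 544 to 886 CPM in principal cells of the collecting duct. Within distal convoluted tubule, Slc12a3 was at 7023 to 11403 CPM in its clusters D7 and D9 and at 627 to 2904 CPM in D2, D3 and D4, which hold most of its cells. Umod, the marker of the thick ascending limb, was also present at 1777 to 3711 CPM in distal convoluted tubule, against 12477 to 15875 CPM in thick ascending limb. The distal convoluted tubule held 402 and 329 cells with BPTES and 255 and 387 with DMSO, and the connecting tubule 81 and 74 against 72 and 96. The share of tubule cells in distal convoluted tubule was 6.14% (95% exact binomial interval 5.57 to 6.75) and 5.45% (4.89 to 6.05) with BPTES and 4.05% (3.58 to 4.57) and 6.74% (6.11 to 7.42) with DMSO, which overlap (exact permutation p = 1, 2-sided, with 0.333 the smallest that 2 against 2 libraries allow). Injured proximal tubule (22 to 147 cells per library) and principal cells of the collecting duct (15 to 35) were under the 30 cells per library set for a test, and levels in them are described only.

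Trpv5, the entry channel, was a gene of the connecting tubule, with 218 and 249 CPM after BPTES and 281 and 295 CPM after DMSO. The distal convoluted tubule had 23.2 to 37.1 CPM, a range apart from that of connecting tubule and overlapping the 20.6 to 48.0 CPM of the few principal cells, and the proximal tubule S1-S2 was at 0.0300 to 0.0546 CPM, within the 0 to 0.158 CPM of T cells, which should lack the channel. Of all Trpv5 UMIs in tubule cells, 82.8% were in connecting tubule and 10.3% in distal convoluted tubule. S100g had the same order in the class sums: connecting tubule at 28904, 29512, 21974 and 16452 CPM (BPTES replicates 1 and 2, then DMSO replicates 1 and 2), then distal convoluted tubule at 10545, 10951, 8083 and 3838 CPM, with ranges apart. The order did not hold for single clusters. D4 of distal convoluted tubule had 47204 to 48650 CPM, above the connecting tubule clusters D6 (23474 to 31493 CPM) and D10 (3166 to 16558 CPM). Intercalated cells and thick ascending limb followed with overlapping ranges, and proximal tubule S1-S2 with 26.8 to 38.5 CPM lay above the 7.55 to 17.5 CPM of T cells and within the 5.30 to 93.0 CPM of NK cells.

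In the class sums Calb1 was highest in distal convoluted tubule, at 1204 to 2560 CPM, and next in connecting tubule, at 661 to 1142 CPM. These ranges did not overlap, but the order did not hold for single clusters. In distal convoluted tubule D4 had 4820 to 13966 CPM, D2 925 to 3046, D3 859 to 2610, D9 494 to 1130 and D7 7.76 to 142. The connecting tubule clusters D6 and D10 had 742 to 1445 and 384 to 859 CPM. Among the other classes the levels were lower. Principal cells of the collecting duct had 175 to 458 CPM, intercalated cells 17.2 to 214 CPM and thick ascending limb 0.488 to 164 CPM, and no class outside these reached more than 6.89 CPM. Slc8a1 was highest in connecting tubule at 3478 to 5101 CPM, apart from monocytes at 683 to 972 CPM, whose range overlapped that of distal convoluted tubule (326 to 1271 CPM). Of its UMIs in kept cells 27.4% were in the tubule, and macrophages (582 to 822 CPM), dendritic cells and fibroblasts also carried it. Pvalb was nearly confined to 1 segment: 94.8% of its tubule UMIs were in distal convoluted tubule, connecting tubule held 1 UMI in each of 2 libraries and none in the others, and the thick ascending limb reached 5.37 CPM in 1 library and at most 0.636 CPM in the rest.

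The pumps had different distributions. Atp2b1, the pump found in most tissues, was at 59.4 to 145 CPM in all 8 tubule segments and higher in leukocytes, from 690 to 814 CPM in monocytes, so that 22.9% of its UMIs were in the tubule. Atp2b4 was at 98.2 to 171 CPM in connecting tubule and 72.5 to 114 CPM in distal convoluted tubule, with overlapping ranges, at 154 to 193 CPM in T cells, and at 0.295 to 0.521 CPM in proximal tubule S1-S2. Only 11.2% of its UMIs were in the tubule.

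Among the sensors and hormone genes, Casr was highest in thick ascending limb at 143 to 221 CPM, apart from connecting tubule (33.5 to 76.9 CPM) and distal convoluted tubule (43.4 to 68.9 CPM), which overlapped each other and intercalated cells (35.4 to 55.8 CPM). Vdr was present along the tubule, at 170 to 295 CPM in connecting tubule, 160 to 200 CPM in distal convoluted tubule and 117 to 138 CPM in proximal tubule S1-S2. It was lower in thick ascending limb (74.0 to 103 CPM) and in the few principal cells (12.4 to 61.8 CPM). Since the proximal tubule held most of the cells, 74.5% of the Vdr UMIs in tubule came from that segment. Cyp27b1 was scarce, at 4.89 to 12.5 CPM in proximal tubule S1-S2, which held 94.2% of its tubule UMIs, and at 0.596 to 2.50 CPM in the S3 segment. The few injured proximal tubule cells had 3.71 to 12.4 CPM.

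**Figure D1:**
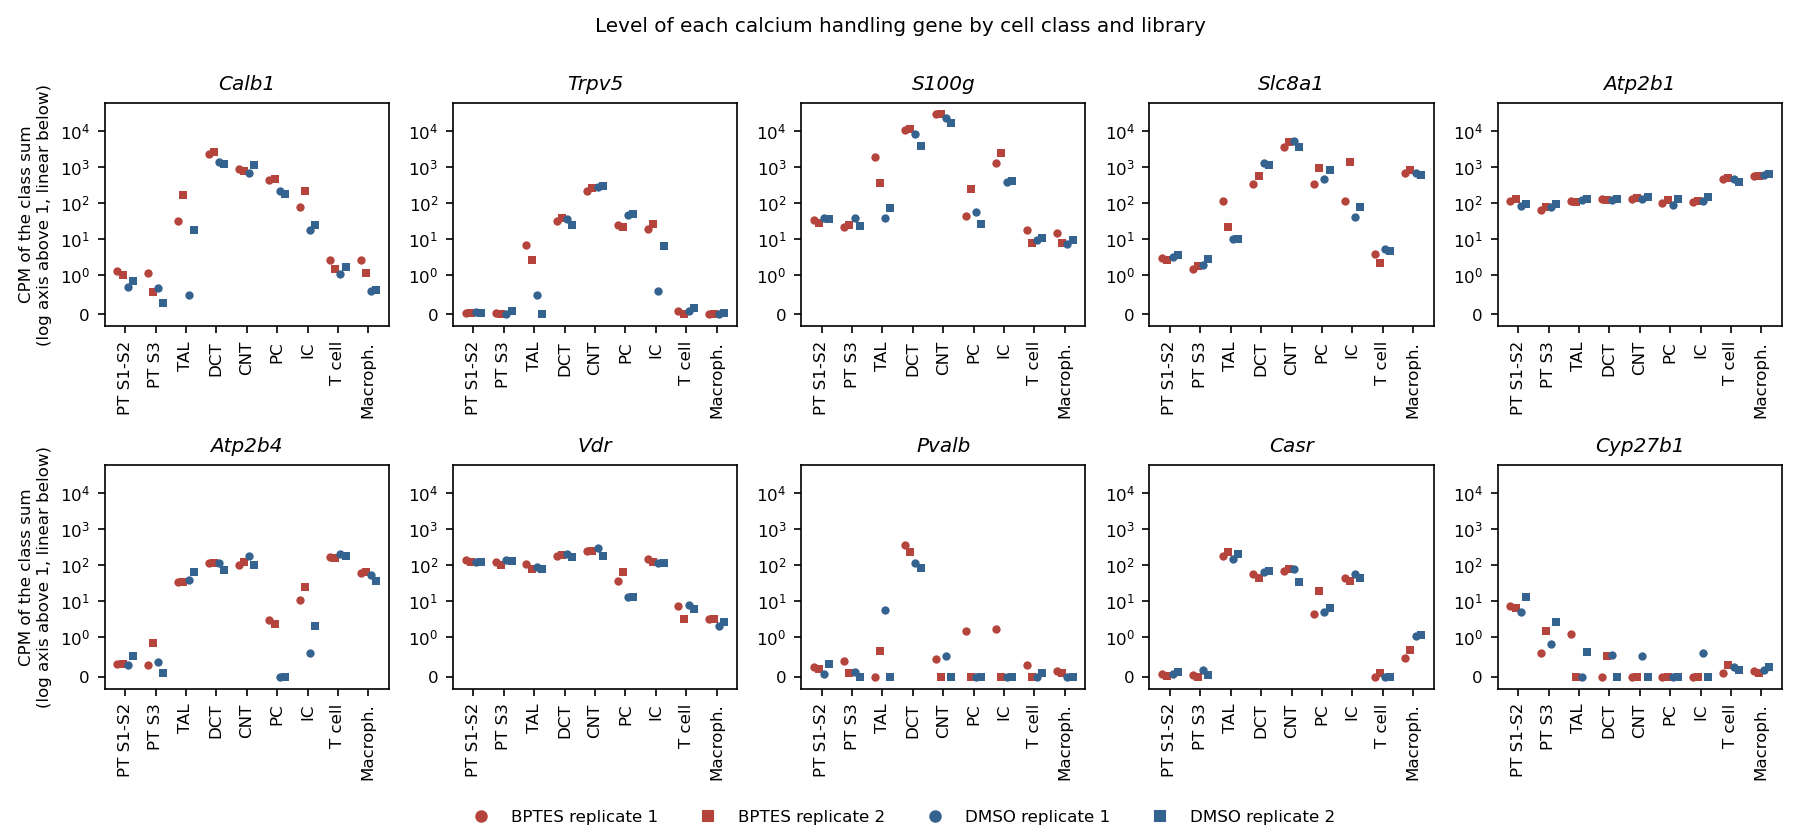
Counts per 1000000 UMIs (CPM, log axis above 1 and linear below) of each of the 10 genes in the class sum of each library, for proximal tubule (PT), thick ascending limb (TAL), distal convoluted tubule (DCT), connecting tubule (CNT), principal cells (PC), intercalated cells (IC), T cells and macrophages. Each point is 1 library, with BPTES in red and DMSO in blue; Pvalb is at most 5.37 CPM in all classes shown other than the distal convoluted tubule.

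The first question was whether these genes differed between BPTES and DMSO in the distal convoluted tubule. In distal convoluted tubule 9 of the 10 genes had counts enough for edgeR's quasi-likelihood test, and 3 of them passed an adjusted p of 0.05 over all genes tested: Pvalb and Calb1 were higher with BPTES and Slc8a1 was lower. Of all 10240 genes tested in this segment 145 passed, or 1.42%. The median log2 fold change of the 9 genes was 0.34 and that of all genes 0.00023.

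Pvalb had 355 and 230 CPM with BPTES, against 112 and 79.0 CPM with DMSO. Both treated libraries lay above both controls, and the log2 fold change was 1.72 (SE 0.22, adjusted p = 0.000155). Calb1 had 2231 and 2560 CPM with BPTES against 1358 and 1204 CPM with DMSO. Its groups did not overlap either, with a log2 fold change of 0.99 (SE 0.20, adjusted p = 0.00941). Slc8a1 went the other way, from 1271 and 1106 CPM with DMSO to 326 and 536 CPM with BPTES, a log2 fold change of -1.38 (SE 0.21, adjusted p = 0.000678). S100g was also above both controls in both treated libraries, but its log2 fold change of 0.95 (SE 0.26) missed the threshold (adjusted p = 0.0839), and DMSO replicate 2, at 3838 CPM, was well under the other 3 libraries.

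The remaining genes of this segment had smaller estimates, and none passed. The log2 fold change was 0.37 (SE 0.24) for Trpv5, 0.34 (SE 0.19) for Atp2b4, 0.12 (SE 0.17) for Vdr, 0.03 (SE 0.17) for Atp2b1 and -0.35 (SE 0.19) for Casr, with adjusted p-values from 0.349 to 0.945. Cyp27b1 had 2 UMIs in this segment over all libraries and was not tested.

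**Figure D2:**
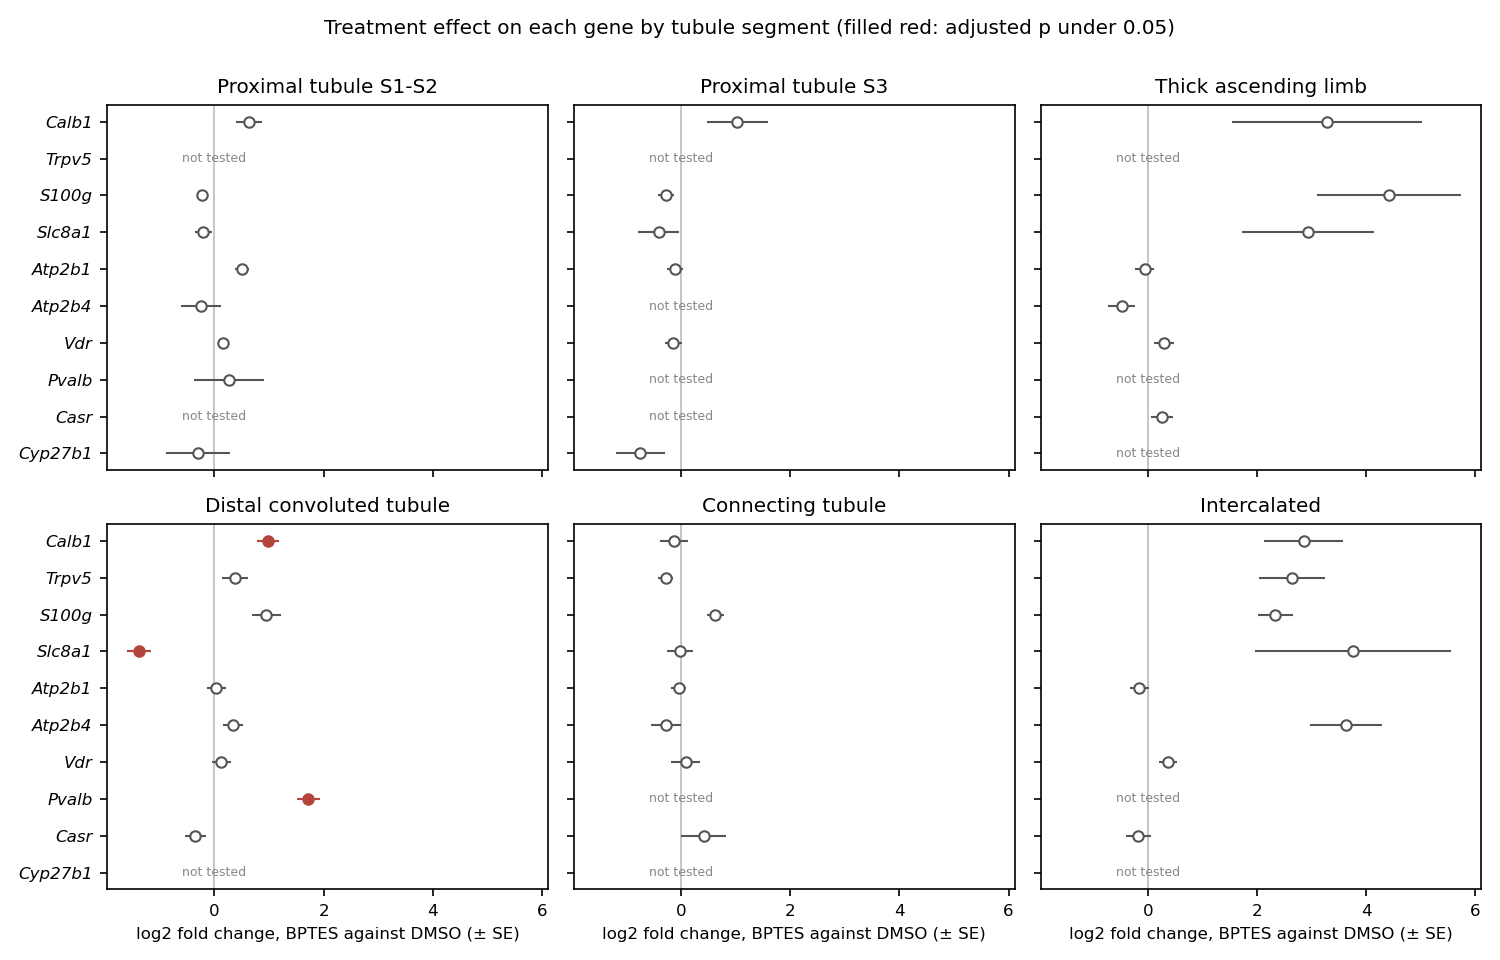
Log2 fold change of BPTES against DMSO (horizontal axis, with bars of 1 SE) for each gene in each of the 6 tested tubule segments; filled red points passed an adjusted p of 0.05 and grey text marks genes with too few counts. The 3 red points, Calb1, Pvalb and Slc8a1, are all in distal convoluted tubule, and the widest bars are in thick ascending limb and intercalated cells.

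The distal convoluted tubule was made of 5 clusters that differed in depth and in their share of each library. Clusters D2, D3 and D4 were shallow, with medians of 788, 2390 and 2956 UMIs per cell, and together held 85.6% and 86.9% of the segment's cells with BPTES against 76.9% and 58.9% with DMSO. D3, which had the highest Pvalb level of the 5, made up 32.1% and 31.9% with BPTES against 23.5% and 22.7% with DMSO. Cluster D7 (median 11565 UMIs) took 122 of its 191 cells from DMSO replicate 2, where it made up 31.5% of the segment against 5.22% to 10.2% elsewhere. Cluster D9 (27260 UMIs) made up 6.38% to 12.9%. D2 was led by Calb1 and Pgam2, D3 by Pvalb and Pgam2, D4 by Calb1, the kallikrein Klk1 and S100g, and D7 and D9 by Slc12a3. In the leading genes of the shallow clusters, markers of the distal convoluted tubule were no more frequent than those of a neighbouring segment: Ppp1r1a in D2 and D3, Kcnj1 in D2 and Klk1 in D4. The summed level of the 4 connecting tubule markers in this segment was 12621 and 13446 CPM with BPTES and 10908 and 3500 CPM with DMSO. DMSO replicate 2 was the lowest library for this list. Plasma cell markers there summed to 133 and 170 CPM with BPTES against 53.3 and 60.5 CPM with DMSO, and injured proximal tubule markers to 136 and 143 CPM with BPTES against 188 and 317 CPM with DMSO. The part of depth, cluster make-up and these lists in the results was not tested.

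**Figure D3:**
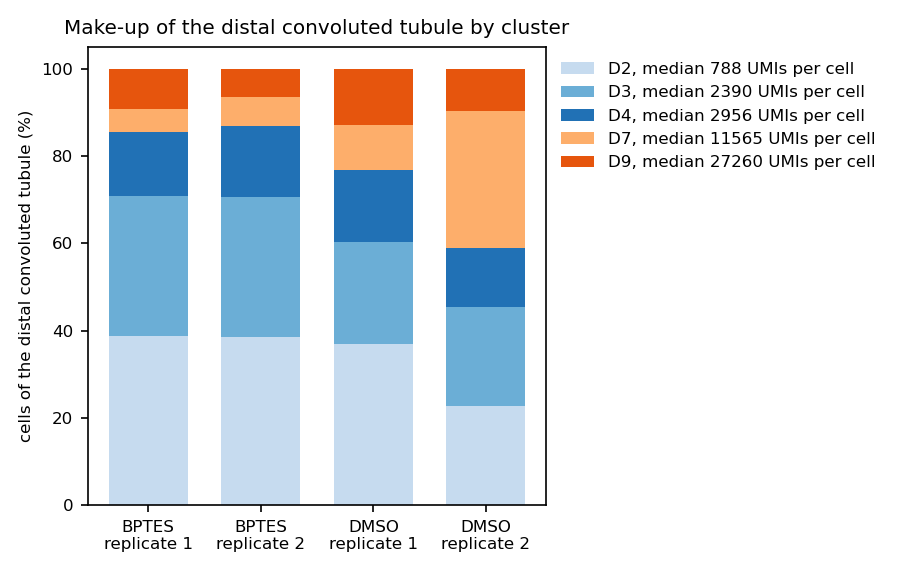
Share of the cells of the distal convoluted tubule (vertical axis, percent) that fell in each of its 5 clusters, 1 bar per library, with the shallow clusters in blue. The blue part is 58.9% in DMSO replicate 2 and 76.9% to 86.9% in the other 3 libraries.

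In 3 of the 5 clusters, each fitted alone, Pvalb was higher with BPTES. In D2 it had 344 and 291 CPM with BPTES against 77.0 and 107 CPM with DMSO, in D3 972 and 701 against 449 and 310 CPM, and in D9 216 and 148 against 57.9 and 83.8 CPM. The treated libraries were above both controls in each of these clusters, and each passed when fitted alone, with log2 fold changes of 1.96 (SE 0.35, adjusted p = 0.00212), 1.14 (SE 0.18, adjusted p = 0.00425) and 1.46 (SE 0.22, adjusted p = 0.00671). The share of all genes that passed in these fits was 0.416% in D2, 0.114% in D3 and 0.191% in D9. D4, at 9.57 to 20 CPM with overlapping groups, and D7, at 34.9 and 6.47 against 0 and 0.602 CPM, had too few Pvalb counts for the test. These fits, chosen after the values had been seen and made with as few as 21 cells in a library, share their libraries and are not independent of each other. Pvalb was found in 33.3% and 29.8% of the segment's cells with BPTES and in 14.1% and 11.6% with DMSO, at median depths of 1692, 1746, 1688 and 3990 UMIs. Thinned to 500 UMIs per cell, the expected shares were 16.3%, 14.7%, 5.31% and 5.65%, against at most 0.0927% in T cells, where at most 0.325% had a UMI at medians of 10741 to 11670 UMIs.

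Without the 3 shallow clusters, only D7 and D9 remained. In DMSO replicate 2 they held 122 and 37 cells. BPTES replicates 1 and 2 had 21 and 37, and 22 and 21, and DMSO replicate 1 had 26 and 33. In that fit, where the part of this make-up was not tested, the log2 fold change of Pvalb was 1.82 (adjusted p = 0.0104). It was 1.49 without DMSO replicate 2, where it no longer passed (adjusted p = 0.133) and 11 genes of the segment did, and 1.82 where the distal cells were not sub-clustered (adjusted p = 0.161), a setting in which no connecting tubule class was formed.

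The order of the groups for Calb1, S100g and Slc8a1 differed from cluster to cluster. Calb1 was higher in both BPTES libraries in D2, at 3046 and 2289 against 1331 and 925 CPM (log2 fold change 1.46, SE 0.24, adjusted p = 0.00051), overlapped in D3 and D4, was above both controls in D7 without passing (adjusted p = 0.828), and was lower in D9, at 494 and 577 against 1130 and 872 CPM (-0.83, SE 0.17, adjusted p = 0.0411). Without the shallow clusters its log2 fold change in the segment was -0.64. S100g was at 47204 to 48650 CPM in D4 in the 4 libraries (log2 fold change 0.31, SE 0.47), while the other 4 clusters had at most 10113 CPM; it fell in D7, from 528 and 464 to 119.5 and 97.1 CPM (-2.50, SE 0.34, adjusted p = 0.0201, where 0.0843% of genes passed), was below both controls in D9 without passing, at 534 and 776 against 3647 and 1765 CPM (-1.98, adjusted p = 0.424), and without the shallow clusters its estimate for the segment was -2.001 (adjusted p = 0.0983). Trpv5 also turned, with an estimate of -2.32 and an adjusted p of 0.0357 without the shallow clusters. Slc8a1 was below both controls in D9 alone, at 194 and 476 against 2075 and 887 CPM, and did not pass there (adjusted p = 0.882). In D4, where both treated libraries had more Slc8a1 than both controls (1091 and 687 against 488 and 620 CPM), it did not pass either (adjusted p = 0.184). Its call in the segment was lost without the shallow clusters (adjusted p = 0.629), without D7 (0.589), without BPTES replicate 1 (0.256), without DMSO replicate 2 (0.122), with a 25% limit on mitochondrial reads (0.134) and with no sub-clustering (0.161). In these fits its log2 fold change was -0.89 to -1.79. The Calb1 call was lost without any 1 of BPTES replicate 1 (0.215), BPTES replicate 2 (0.365) and DMSO replicate 2 (0.0813), with the 25% limit (0.104) and with no sub-clustering (0.127), while its log2 fold change in these fits was 0.90 to 1.17.

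**Figure D4:**
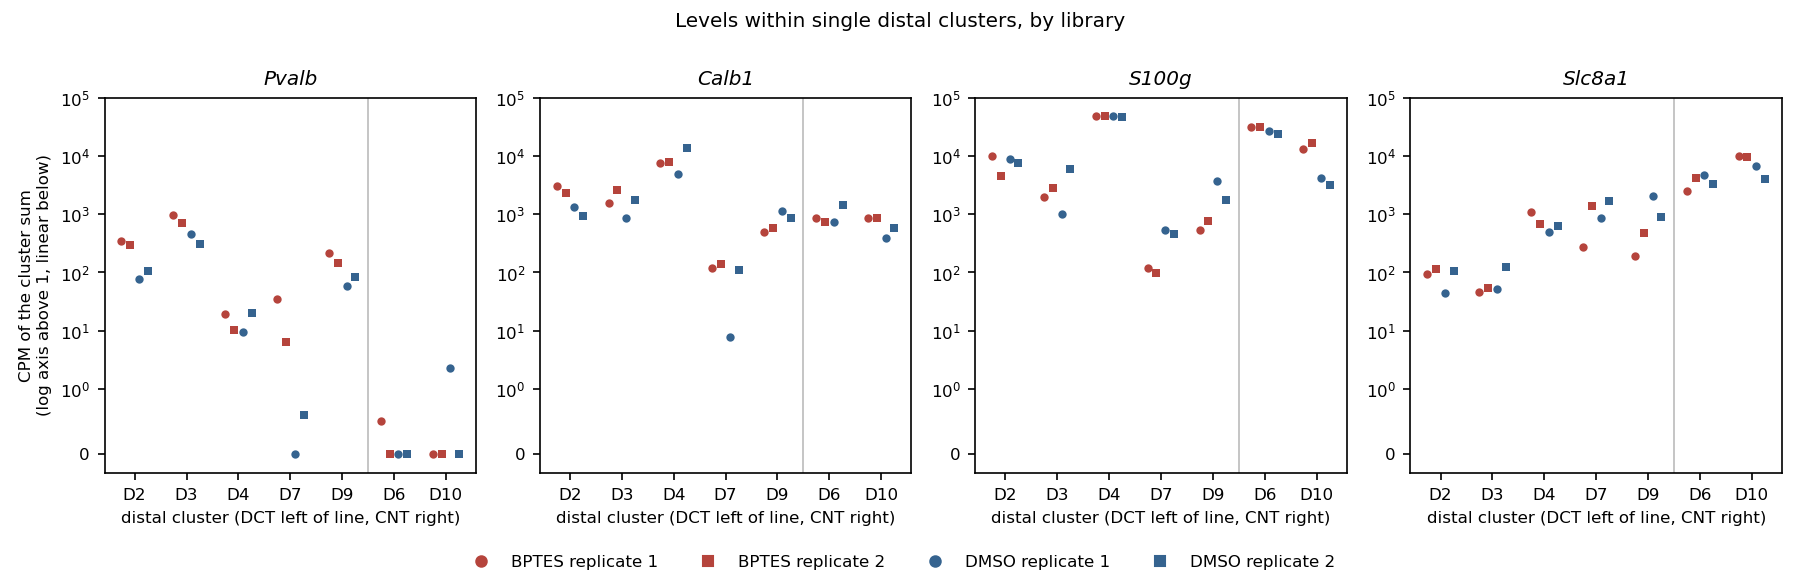
CPM (log axis above 1, linear below) of Pvalb, Calb1, S100g and Slc8a1 in the single clusters of distal convoluted tubule (D2, D3, D4, D7 and D9) and connecting tubule (D6 and D10), 1 point per library. In D2, D3 and D9 both red Pvalb points lie above both blue ones, while Calb1, S100g and Slc8a1 change order from cluster to cluster.

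The treatment effect in distal convoluted tubule was set against that in proximal tubule S1-S2 with a treatment by segment term. The effect differed for 3 of the 10 genes, where 6.75% of the 15994 genes tested did: Pvalb by 1.49 (SE 0.40, adjusted p = 0.0103), S100g by 1.30 (SE 0.29, adjusted p = 0.00116) and Slc8a1 by -1.18 (SE 0.25, adjusted p = 0.00051) on the log2 scale. The term was not refitted without the shallow clusters, where the S100g effect in distal convoluted tubule turned negative. For Calb1 the difference was 0.40 (SE 0.31, adjusted p = 0.521). Each of the 3 lost its call when some single library was left out: S100g without BPTES replicate 1 (1.46, adjusted p = 0.116) or BPTES replicate 2 (1.20, adjusted p = 0.296), Slc8a1 without BPTES replicate 1 (-0.77, adjusted p = 0.383), and Pvalb without BPTES replicate 1 (1.23, adjusted p = 0.25), BPTES replicate 2 (1.72, adjusted p = 0.0647) or DMSO replicate 2 (-0.20, adjusted p = 0.963). The S100g value was 0.81 when DMSO replicate 2 was left out and 1.78 when DMSO replicate 1 was, and that of Calb1 ranged from 0.14 to 0.63 over the left-out libraries. Without BPTES replicates 1 and 2 in turn, 141 and 85 genes passed in all. In proximal tubule S1-S2 Pvalb was at 0.0655 to 0.310 CPM and Slc8a1 at 2.58 to 3.56 CPM, against 0 to 0.291 and 2.05 to 5.04 CPM in T cells. For these genes the term therefore compares the distal effect with a level that overlaps that of T cells.

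In connecting tubule, where the whole transcellular route is expressed, none of the 8 tested genes passed edgeR's test, and 13 of 10725 genes did (0.121%). One of the 8, S100g, had an unadjusted p under 0.05, as did 1304 genes in all, and it was the 1 that DESeq2 called, among 67 of 17921 genes. S100g had 28904 and 29512 CPM with BPTES and 21974 and 16452 CPM with DMSO, both treated libraries above both controls, with a log2 fold change of 0.62 (SE 0.15, adjusted p = 0.139). Both treated libraries were also above both controls in each connecting tubule cluster, at 31268 and 31493 against 27228 and 23474 CPM in D6 and at 13231 and 16558 against 4119 and 3166 CPM in D10. D10, with lower S100g, made up 25.9% and 24.3% of the segment with BPTES and 43.1% and 50.0% with DMSO, so the make-up moved with the result, and its part was not tested. In D6, fitted alone, the log2 fold change was 0.33 (SE 0.12, adjusted p = 0.446). D10 had as few as 18 cells in a library and was not fitted alone. There Slc12a3 was at 702 and 809 CPM with BPTES and 299 and 418 with DMSO. Calb1, Slc8a1 and Atp2b4 were also above both controls in D10, while Trpv5, Atp2b1, Vdr and Casr overlapped. The 4 connecting tubule markers in this segment summed to 20620 and 32526 against 23252 and 10378 CPM. The part of these levels in the S100g result was not tested.

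Trpv5 was lower in both treated libraries, 218 and 249 against 281 and 295 CPM, without passing (log2 fold change -0.28, SE 0.14, adjusted p = 0.433). The other estimates were no larger than about their error: Calb1 (-0.13, SE 0.26), Slc8a1 (-0.02, SE 0.24), Atp2b1 (-0.05, SE 0.14), Atp2b4 (-0.27, SE 0.28), Vdr (0.08, SE 0.26) and Casr (0.41, SE 0.41). Slc8a1 at 3478, 4948, 5101 and 3578 CPM showed no order by group.

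In thick ascending limb none of the 7 tested genes passed, where 41 of 10623 genes (0.386%) did. None of the 7 had an unadjusted p under 0.05, which 757 genes had in all, and DESeq2 called 1, S100g, among 38 of 17689 genes. Casr, the sensor of this segment, had 170 and 221 CPM with BPTES and 143 and 204 CPM with DMSO; the groups overlapped, with a log2 fold change of 0.26 (SE 0.20, adjusted p = 0.928). S100g had 1862 and 362 CPM with BPTES and 38.6 and 70.9 CPM with DMSO. Of the 4864 S100g UMIs of BPTES replicate 1 in this segment, 4788 were in 1 cluster, D16, which took 28 of its 46 cells from that library and had Klk1 among its leading genes.

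In intercalated cells none of 8 tested genes passed, against 9 of 10150 genes (0.0887%), while 5 of the 8, and 1000 genes in all, had an unadjusted p under 0.05. The median log2 fold change of the 8 genes was 2.49 and that of all genes -0.010. DESeq2 called 2, S100g and Calb1, among 46 of 17097 genes. S100g had 1239 and 2376 CPM with BPTES and 373 and 406 CPM with DMSO, and Slc8a1 110 and 1358 against 41.0 and 73.7 CPM. Slc8a1 in BPTES replicate 2 came to 1610 UMIs, of which 1538 were in cluster D13, a cluster of 69 cells led by Slc26a4, the marker of the intercalated cells that secrete bicarbonate. Slc12a3, which intercalated cells should lack, was at 164 CPM in BPTES replicate 2 and 1.16 to 3.56 CPM in the other 3 libraries. The 4 connecting tubule markers summed to 9180 and 5319 CPM in intercalated cells with BPTES and to 2613 and 2010 CPM with DMSO, and the 6 markers of distal convoluted tubule to 455 and 667 against 329 and 290 CPM. Cluster D8, led by Aqp6 and Slc4a1, made up 23.7% and 34.9% of these cells with BPTES and 46.4% and 80.4% with DMSO. The part of these markers and shares in the S100g and Slc8a1 levels was not tested.

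In proximal tubule S1-S2 none of the 8 tested genes passed, where 1536 of 15632 genes did (9.83%); 3 of the 8 had an unadjusted p under 0.05, as did 5041 genes in all, and DESeq2 called 1, Atp2b1, among 2317 of 23310 genes. Atp2b1 came closest, with 109 and 122 CPM with BPTES against 80.0 and 92.3 CPM with DMSO, both treated libraries above both controls (log2 fold change 0.50, SE 0.13, adjusted p = 0.051). Vdr, at 138 and 117 against 122 and 120 CPM, overlapped between the groups (0.15, SE 0.08, adjusted p = 0.226). Cyp27b1 had 7.06 and 6.45 CPM with BPTES and 4.89 and 12.5 CPM with DMSO, so the controls lay on either side of the treated libraries (log2 fold change -0.30, SE 0.58, adjusted p = 0.772), and the estimate moved to -0.85 with DMSO replicate 1 left out and to 0.58 with DMSO replicate 2 left out. Each of those values sets the treated libraries against 1 control. S100g was slightly lower with BPTES, at 33.5 and 26.8 against 38.5 and 35.6 CPM (-0.22, SE 0.09, adjusted p = 0.125). In the S3 segment none of 6 tested genes passed against 812 of 12831 genes (6.33%). None of the 6 had an unadjusted p under 0.05, which 2504 genes had in all, and DESeq2 called none, against 226 of 20265 genes. There Vdr had a log2 fold change of -0.14 (SE 0.15) and Cyp27b1 of -0.75 (SE 0.45).

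Summed over distal convoluted and connecting tubule, none of 9 tested genes passed, where 82 of 11769 genes did (0.697%). The 3 with an unadjusted p under 0.05, which 2018 genes had in all, were S100g at 0.77 (SE 0.24, adjusted p = 0.152), Pvalb at 1.56 (SE 0.33, adjusted p = 0.156) and Calb1 at 0.56 (SE 0.15, adjusted p = 0.121), and DESeq2 called 2 of the 9, Calb1 and Pvalb, among 130 of 19392 genes. Slc8a1, lower in distal convoluted tubule, was at 1829 and 2948 CPM with BPTES and 3240 and 2123 CPM with DMSO in this sum, a log2 fold change of -0.14 (SE 0.28). Over all tubule segments 0 of 17008 genes passed (0%) with edgeR, 2694 genes had an unadjusted p below 0.05, and 679 were called by DESeq2. Of the 10 genes 3 had an unadjusted p under 0.05 and DESeq2 called 2, S100g and Pvalb. The estimates there were 0.77 (SE 0.13, adjusted p = 0.108) for S100g, 1.38 (SE 0.28, adjusted p = 0.156) for Pvalb, 0.50 (SE 0.35, adjusted p = 0.497) for Calb1 and 0.39 (SE 0.14, adjusted p = 0.268) for Atp2b1. In such sums, more cells of a segment and more RNA per cell cannot be told apart. Before any filter or cell naming, the whole libraries held 1056 and 567 Pvalb UMIs with BPTES and 286 and 391 with DMSO, or 3.56 and 2.27 against 0.960 and 1.32 CPM, and 444 and 414 against 246 and 256 CPM of S100g. The treated libraries were above both controls for Pvalb and S100g, and also for Calb1 (34.4 and 33.8 against 17.5 and 32.5 CPM). They were below both controls for Atp2b1 (212.7 and 228.9 against 235.2 and 229.2 CPM) and Atp2b4 (23.8 and 24.3 against 27.1 and 26.5 CPM). For the other genes of the set the groups overlapped. The share of all genes whose groups did not overlap was not counted.

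A list of 49 other genes of calcium, magnesium, phosphate and vitamin D handling was read in the same fits. In distal convoluted tubule 0 of 38 tested passed edgeR's test beside the 1.42% of all genes (12 of the list and 1824 of the 10240 genes had an unadjusted p under 0.05, and DESeq2 called 0 of the list), with a median log2 fold change of 0.23 against 0.00023 for all genes. In proximal tubule S1-S2 8 of 42 tested passed, 7 of them higher with BPTES, beside a background of 9.83%, where 936 of the 1536 genes that passed were higher. The 7 were the phosphate cotransporters Slc34a1 (0.42, SE 0.10, adjusted p = 0.0457) and Slc34a3 (0.50, SE 0.10), the FGF23 coreceptor Kl (0.65, SE 0.14), the calcium pump of the endoplasmic reticulum Atp2a2 (0.91, SE 0.18), the store calcium sensor Stim1 (0.43, SE 0.08), the polycystin channel Pkd2 (0.29, SE 0.07) and the magnesium transporter Cnnm4 (0.53, SE 0.13). Slc34a1 had 4051 and 4133 CPM with BPTES and 3157 and 3316 CPM with DMSO, and Kl had 445 and 491 against 285 and 346 CPM. Without BPTES replicate 2 no gene of the list passed, and 46 genes of the segment did in all; at Leiden resolution 2 none of the list passed either. The make-up of the segment moved with the treatment: its largest cluster held 1255 and 1527 cells with BPTES and 851 and 875 with DMSO, and the median mitochondrial share was 17.7% and 22.2% against 12.5% and 16.7%, and their part was not tested.

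In the S3 segment 3 of 38 passed, beside the 6.33% of all genes, and all 3 were lower with BPTES, as were 642 of the 812 genes that passed there: the phosphate transporter Slc20a1 (-0.57, SE 0.16), the mitochondrial sodium-calcium exchanger Slc8b1 (-0.81, SE 0.27) and the receptor Fgfr1 (-0.47, SE 0.16). With DESeq2 1 gene of the list passed there, and none did without DMSO replicate 2, at Leiden resolution 2 or with doublets kept. In intercalated cells 1 of 35 passed, Fxyd2, which encodes a regulatory subunit of the sodium pump, at 3334 and 3465 CPM with BPTES and 2019 and 1669 CPM with DMSO (1.01, SE 0.15, adjusted p = 0.027). The Fxyd2 call was lost without BPTES replicate 1 (adjusted p = 0.119), without BPTES replicate 2 (0.166), at the 25% mitochondrial limit (0.0654) and with doublets kept (0.053), and the part of the markers and cluster shares given above for intercalated cells was not tested. None of 37 passed in thick ascending limb (7 with unadjusted p below 0.05) or of 33 in connecting tubule (4 with unadjusted p below 0.05), with 0 called by DESeq2 in both.

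The genes whose level over 16 cell classes was most like that of a member were named by Pearson's r of log2(CPM + 1), a description across classes that share libraries. For Calb1 they were Sall3, Pgam2 and Ptgfr (r 0.98 to 0.99), for Trpv5 Gm15810, Scnn1g and Gm11734 (0.98 to 0.99), and for S100g Gm13652, Atp10b and Gm26685 (0.98 to 0.99). Pvalb was most like Lrrc52 (0.97), 5330417C22Rik (0.96) and 4932411K12Rik (0.93), and Casr most like Ephb2 (0.97), Epcam (0.96) and Cd164l2 (0.96). For Slc8a1 the nearest were Sowahc (0.92), Nectin4 (0.90) and B4galt6 (0.89). Atp2b1 was nearest to Tnfrsf1b, Rnf19b and Ptpn1 (0.96), Atp2b4 to Dlg4 (0.92), Cdipt (0.87) and Eml6 (0.87), and Vdr to Gstt3 (0.97), Camsap3 (0.96) and Tead3 (0.96).

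Outside the tubule 10 classes and the sum of all CD45-positive classes were tested, and in each of 2 of these 11 fits 1 of the 10 genes passed edgeR's test. Vdr, the vitamin D receptor, was lower with BPTES in the sum of all CD45-positive classes, at 4.42 and 4.15 against 7.27 and 9.62 CPM (log2 fold change -0.88, SE 0.16, adjusted p = 0.039), where 1583 of 17103 genes (9.26%) passed. Atp2b4 was higher in dendritic cells, at 20.2 and 24.0 against 14.2 and 15 CPM (0.59, SE 0.12, adjusted p = 0.0435), where 609 of 13291 genes (4.58%) passed. These calls were not examined under the alternatives. The cell make-up differed between the groups: plasma cells numbered 259 and 199 with BPTES and 25 and 26 with DMSO, and the largest dendritic cell cluster held 210 and 202 against 441 and 285 cells. The part of this make-up in both calls was not tested. In endothelium Atp2b4 was at 75.0 and 63.6 against 88.0 and 104 CPM and did not pass (-0.46, SE 0.11, adjusted p = 0.105).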

How the data were processed

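The authors deposited raw UMI counts per gene and barcode, made with Cell Ranger 8.0.1 on mm10 per the submitters' processing notes, from GEM-X 3′ libraries per the labels' protocols. Barcodes with at least 500 UMIs, 300 genes and at most 50% mitochondrial UMIs were kept, and Scrublet's highest-scoring barcodes were removed at 0.4% per 1000 barcodes. Cells were clustered with scanpy 1.11.5 (Python 3.11.15; 3000 variable genes, 40 components, Leiden resolution 1), without the 10 genes and the 49 pathway genes, and distal cells were clustered again. Clusters were named from marker lists. Raw counts were summed per library and class and tested with edgeR 4.0.16 (R 4.3.3): robust quasi-likelihood, TMM scaling, filterByExpr and Benjamini-Hochberg adjustment over all genes of the class, threshold 0.05, 2 against 2 libraries, in classes with at least 30 cells in every library. Single distal clusters, fitted alone after seeing the data, needed 20 cells in every library. Where leaving out a library left 1 in a group, that library was assumed to vary like the other group. SE is the absolute log2 fold change over the root of F, an approximation. CPM are per 1000000 UMIs of the class sum, without TMM. Thinned shares are the expected shares at 500 UMIs. Binomial intervals (95%) cover counting error only. Alternatives included DESeq2 1.42.0, scaling, filters, clustering choices, left-out libraries and the replicate number as a block. Totals given for DESeq2 are all genes with any UMI in the class. A gene it left without an adjusted p counts there as not called.

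The members and gene lists were chosen with earlier results of these data known. Named were all 10 members, every pathway gene that passed in a tested segment (at most 8 per segment; 1 such gene is not reported here), and the 3 genes most correlated with each member of at least 200 UMIs. On simulated counts for distal convoluted tubule (10340 genes, 200 changed), 54% of 2-fold and 99% of 4-fold changes were recovered. The simulation gave all genes the same fixed spread between libraries, which was not estimated from these libraries. Its changed genes were drawn only from those above a count floor. These shares therefore do not show what could be detected in the real data.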

Additional observations from a re-analysis of the deposited data

Results flagged for a closer look

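Of the 10 genes, 3 had a treatment effect in distal convoluted tubule that differed from that in proximal tubule S1-S2 by edgeR's test of the treatment by segment term, which 6.75% of all genes tested passed. The difference in log2 fold change was 1.30 for S100g (adjusted p = 0.00116), 1.49 for Pvalb (adjusted p = 0.0103) and -1.18 for Slc8a1 (adjusted p = 0.00051). In single distal clusters the log2 fold change of S100g was 0.019 (D2), -0.61 (D3), 0.31 (D4), -2.50 (D7) and -1.98 (D9). Of these only that in D7 passed edgeR's test (adjusted p = 0.0201). For Slc8a1 the log2 fold change was 0.64 (D2), -0.95 (D3), 0.99 (D4), -0.99 (D7) and -2.11 (D9), and none passed. Without the shallow clusters the S100g effect in distal convoluted tubule turned negative, and the treatment by segment term was not refitted there. The Pvalb difference was -0.20 without DMSO replicate 2, 2.50 without DMSO replicate 1, 1.23 without BPTES replicate 1 and 1.72 without BPTES replicate 2. Its call was lost in each of these fits except the one without DMSO replicate 1. The S100g call was lost without BPTES replicate 1 (adjusted p = 0.116) or BPTES replicate 2 (adjusted p = 0.296), and that of Slc8a1 without BPTES replicate 1 (adjusted p = 0.383). Pvalb in proximal tubule S1-S2 rested on 23, 17, 6 and 25 UMIs in BPTES replicates 1 and 2 and DMSO replicates 1 and 2. In the same order, 0.318%, 0.301%, 0.123% and 0.120% of its cells held any.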

How the results depend on the processing

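Segments are abbreviated as proximal S1-S2 and S3, TAL (thick ascending limb), DCT, CNT (connecting tubule) and IC (intercalated cells). Counts of genes passing 0.05, for all genes and the pathway list, moved by over 1.5 times as follows, and the cause was not tested. With DESeq2 the genes passing were 2317 in S1-S2, 226 in S3, 67 in CNT, 46 in IC, 130 in DCT+CNT and 679 in all tubule. The pathway counts were 17 in S1-S2, 1 in S3, 2 in IC and 9 in all tubule. With no low-count filter the genes passing were 3847 in S1-S2, 258 in TAL, 378 in DCT, 584 in CNT, 285 in IC, 823 in DCT+CNT and 283 in all tubule. For the pathway list they were 19 in S1-S2, 1 in TAL, 3 in DCT, 4 in CNT, 6 in IC, 8 in DCT+CNT and 3 in all tubule. With the replicate block the genes passing were 5370 in S1-S2, 2219 in S3, 267 in TAL, 667 in DCT, 107 in CNT, 77 in IC, 164 in DCT+CNT and 181 in all tubule. Those of the pathway list were 25 in S1-S2, 15 in S3, 6 in TAL, 6 in DCT, 1 in CNT, 3 in IC, 1 in DCT+CNT and 2 in all tubule. With the 25% mitochondrial limit the genes passing were 3024 in S1-S2, 2913 in S3, 16 in DCT, 35 in CNT, 19 in IC and 13 in DCT+CNT. The pathway counts were 14 in S1-S2, 17 in S3 and 0 in IC. Signs turned, to -0.76 for Trpv5 in DCT, -0.15 for Atp2b1 in DCT and -0.071 for Atp2b4 in DCT (log2). At Leiden resolution 2 the genes passing were 520 in S1-S2, 186 in S3, 333 in DCT, 25 in CNT and 141 in DCT+CNT. For the pathway list they were 0 in S1-S2, 0 in S3, 1 in TAL and 3 in DCT. Signs turned, to -0.28 for Trpv5 in DCT and -0.17 for Vdr in CNT (log2). With the members used for clustering the genes passing were 746 in DCT and 5 in CNT. Those of the pathway list were 13 in S1-S2, 5 in S3, 1 in TAL and 4 in DCT. Signs turned, to -0.27 for Trpv5 in DCT and -0.054 for Vdr in CNT (log2). With doublets kept the genes passing were 106 in S3, 35 in CNT and 19 in IC. The pathway counts were 0 in S3 and 1 in DCT. Signs turned, to 0.052 for Calb1 in CNT and 0.087 for Slc8a1 in CNT (log2). With RLE scaling the genes passing were 24 in CNT and 15 in all tubule. For the pathway list they were 1 in S3. With no distal sub-clustering the genes passing were 11 in TAL, 7 in DCT and 14 in IC, and since no CNT class was formed, DCT+CNT is the same fit as DCT. Those of the pathway list were 3 in IC. Signs turned, to -0.066 for Atp2b1 in DCT (log2). Without the shallow clusters the genes passing were 13 in TAL, 31 in DCT and 42 in DCT+CNT. Signs turned, to -0.64 for Calb1 in DCT, -2.001 for S100g in DCT, -2.32 for Trpv5 in DCT, -0.072 for Atp2b4 in DCT, -0.18 for Calb1 in DCT+CNT and -0.11 for Calb1 in all tubule (log2). Without D7 the genes passing were 7 in DCT+CNT and 12 in all tubule. The pathway counts were 3 in DCT. Leaving out each library in turn, the genes passing ranged from 46 to 2832 in S1-S2, 303 to 1307 in S3, 30 to 371 in TAL, 11 to 1108 in DCT, 9 to 635 in CNT, 23 to 263 in IC, 4 to 179 in DCT+CNT and 8 to 1476 in all tubule. Pathway genes passing ranged from 0 to 13 in S1-S2, 0 to 10 in S3, 0 to 6 in TAL, 0 to 9 in DCT, 0 to 3 in CNT, 1 to 3 in IC, 0 to 2 in DCT+CNT and 0 to 13 in all tubule. Log2 fold changes that changed sign ranged from -0.048 to 0.11 for Atp2b1 in DCT, -0.0196 to 0.24 for Vdr in DCT, -0.46 to 0.32 for Calb1 in CNT, -0.32 to 0.27 for Slc8a1 in CNT, -0.14 to 0.054 for Atp2b1 in CNT, -0.63 to 0.18 for Atp2b4 in CNT, -0.27 to 0.54 for Vdr in CNT, -0.10 to 1.11 for Casr in CNT, -0.85 to 0.58 for Cyp27b1 in S1-S2, -1.37 to 0.30 for Cyp27b1 in S3 and -0.51 to 0.18 for Slc8a1 in DCT+CNT. For the treatment by segment term the range was -0.20 to 2.50 for Pvalb. The labels do not pair the replicate numbers, and deviations of same-numbered libraries correlated at 0.0051 to 0.21 over genes, so the block was not used. Shallow clusters, D7 and single clusters were examined after seeing the data. With 2 libraries a group, 255 to 402 cells in DCT and 72 to 96 in CNT limit what can be detected.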
